A study of Mus musculus with 18 samples.

Results

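Levels of 8 genes for transcription factors known from resting T cells, Tcf7, Lef1, Bach2, Satb1, Id3, Foxo1, Foxp1 and Ets1, were followed across regulatory T (Treg) cells of 6 sites of the mouse. The 8 genes were picked by name, as a set of factors linked to resting T cells, out of the 55487 Ensembl gene IDs in the deposited tables. They were chosen with earlier results of these data known. All 8 were found by symbol and all 8 passed the filter on low values. Treg cells are CD4+ T cells defined by the factor Foxp3, and they restrain immune responses. The study set Treg cells of peripheral blood beside those of lung, liver, bone marrow, spleen and lymph node, with 3 libraries of polyA RNA per site and 18 in all. All groups came from wild-type mice that had received no treatment, and cells were sorted as CD4+Foxp3+ cells directly from the organs. The labels do not give sex, age, strain, the reporter or stain behind the Foxp3 gate, which lymph nodes were taken, or whether animals were pooled. They also do not say whether the 3 libraries of a site came from separate animals or sorts, so the p-values here measure only the spread between these libraries, which may be technical.

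Tcf7 encodes TCF-1 and Lef1 encodes LEF-1, a pair of related high-mobility-group factors that can act with beta-catenin of the Wnt pathway or with Groucho/TLE co-repressors, and both are high in naive and memory-like T cells. Foxo1 encodes a forkhead factor that leaves the nucleus when antigen receptor or growth factor signals activate the kinase Akt. In quiescent T cells it drives genes of circulation and survival such as Klf2, Ccr7 and Il7r. Effector Treg cells in tissues are known for another set of factors, among them Blimp-1, GATA3, ROR-alpha and PPAR-gamma, while factors of the resting state tend to be lower in such cells.

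Lung stood apart for several of these genes. The mean of the lung Treg libraries was higher for Satb1 and Ets1 and lower for Tcf7 and Id3 than that of each of the 5 other sites, both in TPM and relative to general T cell genes. Each of these differences was called on both scales, but for Id3 the lung and bone marrow libraries overlapped and that call was lost in 5 alternatives. The 8 genes therefore did not move as a block. By the F test among the 6 sites (limma with Benjamini-Hochberg adjustment over 16694 genes), 7 of the 8 were called at an adjusted p under 0.05, where 68% of all tested genes were called. Bach2 was the gene that was not called, with an adjusted p of 0.0607.

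Values are in TPM, a length-normalized unit, so each is a share of a library's RNA and keeps a common total. Differences between sites are given as differences of log2(TPM + 1), which slightly understates changes of the lower genes, with the standard error (SE) and adjusted p of limma. A second scale was used throughout, because the T cell genes themselves differed between sites. On this T cell gene scale, each library was divided by the geometric mean of 19 general T cell genes (Cd3e, Cd4, Lck, Zap70 and others). That mean was 202.5 to 205.9 TPM in blood, 298 to 302 in bone marrow, 333.1 to 351.1 in lung, 400.8 to 408.4 in liver, 424.8 to 428.8 in spleen and 465.3 to 471 in lymph node. The blood libraries thus stood at less than every other site for T cell genes as a group. Going from TPM to the T cell gene scale shifted the log2 difference of each gene, blood minus organ. The median of these shifts over genes was 0.98 for spleen, 1.09 for lymph node, 0.53 for bone marrow, 0.9 for liver and 0.7 for lung. Fewer T cells in a sort and less T cell RNA per cell cannot be told apart in bulk libraries.

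Foxp3, the gene that defines Treg cells, was at 85.4, 88.4 and 92.2 TPM in the blood libraries and at 239.1, 236.2 and 240.3 TPM in lymph node, with the means of the other sites between. Il2ra, the interleukin-2 receptor chain of Treg cells, had site means from 57.1 TPM in bone marrow to 233.7 in lymph node, and Cd3e, a chain of the T cell receptor complex, from 277.2 in blood to 690.6 in lymph node. Markers of other cells were not absent. The 14 myeloid markers summed to between 28308.7 and 29159.1 TPM in blood and between 38398.2 and 38634.3 TPM in bone marrow. The same sum was 1743.2 to 1799.5 TPM in lung, 654.6 to 792.9 in spleen, 161.1 to 378.2 in liver and 49.4 to 83.9 in lymph node. All 14 reached 1 TPM in blood, bone marrow, spleen and lung. B cells also express several of the 8 genes, and the 10 B cell markers summed to between 559.9 and 701.4 TPM over the libraries of blood, bone marrow and spleen, and to between 85.0 and 183.4 TPM over those of lymph node, lung and liver. All 10 B cell markers reached 1 TPM as group means at every site. The 8 markers of cytotoxic and natural killer cells summed to 557.8 to 610.1 TPM in blood and to 60.2 to 123.2 TPM elsewhere, and the 6 lung epithelium markers to 226.7 to 303.0 TPM in lung. Platelet markers summed to 2208.8 to 2244.1 TPM in blood, and erythroid markers to 10931.8 to 11969.4 TPM in liver. The part of these cells in the differences below was not tested. TPM keeps no sequencing depth, so depth is unknown; genes above 0 numbered 14314 in the lowest liver library and 19797 in the highest bone marrow library.

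Promoter sequences are shown for the pair of genes whose listed promoters matched the motif of the TCF/LEF family itself and overlapped no annotated exon. RefSeq promoters (GRCm38.p6) were found for 7 of the 8 genes, with 17 start sites, and the 250 bases upstream of each start were searched on both strands. Ets1 had no entry. Each sequence is read 5′ to 3′ on the strand of the gene and ends just before the start site, and the capitals mark matches.
Lef1, chr3:131156044-131156293, plus strand, at a start site inside the gene: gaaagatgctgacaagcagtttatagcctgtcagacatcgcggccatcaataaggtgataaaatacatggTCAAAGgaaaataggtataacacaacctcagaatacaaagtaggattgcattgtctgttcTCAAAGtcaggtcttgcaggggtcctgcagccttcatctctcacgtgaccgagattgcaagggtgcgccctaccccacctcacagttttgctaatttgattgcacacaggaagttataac
Bach2, chr4:32417185-32417434, plus strand, at a start site inside the gene: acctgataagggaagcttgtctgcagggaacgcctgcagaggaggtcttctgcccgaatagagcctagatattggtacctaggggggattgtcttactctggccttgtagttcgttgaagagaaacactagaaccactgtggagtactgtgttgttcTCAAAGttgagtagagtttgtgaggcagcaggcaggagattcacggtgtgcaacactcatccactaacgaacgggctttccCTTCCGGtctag
In the Lef1 sequence, the TCF/LEF motif CTTTGA was matched on the opposite strand, as TCAAAG, starting 180 and 120 bases upstream of the start. The Bach2 sequence held TCAAAG starting 93 bases upstream, and the ETS motif CCGGAAG, also on the opposite strand, starting 12 bases upstream. None of these matches overlapped another.

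Over all 17 promoters, CTTTGA was in 3, of Lef1, Bach2 and Foxp1, and 13.8% of 32851 RefSeq promoters of the same length held it. CCGGAAG was in 2, of Tcf7 and Bach2, against 6.91% of all promoters. The E-box CAGGTG was in 2, of Satb1 and Foxp1, against 17.2%. Neither the FOXO motif GTAAACA nor the AP-1/BACH motif TGAGTCA was in any of the 17 windows, and 3.17% and 4.46% of all promoters held them. A match describes letters in a window and is no evidence of binding.

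Tcf7 (ENSMUSG00000000782, chr11:52252371-52283014, minus strand, protein coding, coordinates here and below from GENCODE M21 on GRCm38) had the finest order of sites. Its 3 libraries stood at 431.8, 426.4 and 433.4 TPM in lymph node, at 354.0, 345.4 and 341.3 in spleen, and at 295.8, 290.2 and 292.6 in liver. In blood they stood at 250.7, 257.6 and 261.7, in bone marrow at 193.2, 191.2 and 185.7, and in lung at 141.9, 160.6 and 153.8. No library of a site overlapped those of another site, so all 15 pairs of sites were apart; over all tested genes and pairs, 47.6% were. Each step of the order also passed the test, with adjusted p of 0.00022, 0.000728, 0.00324, 2.18e-06 and 3.07e-05 from lymph node down to lung. On the median ratio scale, which sets the libraries by the median of many genes, the first step was not called (adjusted p = 0.0806). The full span, lymph node over lung, was 2.83-fold in TPM.

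The lower Tcf7 level of lung held on both scales. It was lower than each other site by between 0.32 and 1.5 on the log2 scale in TPM, with the largest adjusted p at 3.07e-05, and by between 0.51 and 1.49 on the T cell gene scale, with the largest adjusted p at 1.29e-07. The position of blood did not hold. In TPM it lay below spleen, lymph node and liver, while relative to T cell genes it was the highest site, at 126.1% ± 2.83 (SD, n = 3) of their geometric mean, with lymph node at 92.0% and lung at 44.6% ± 2.28.

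Lef1 (ENSMUSG00000027985, chr3:131110471-131224356, plus strand, protein coding) did not share that order. Lymph node libraries stood at 131.1, 143.5 and 141.5 TPM and lung libraries, lowest for Tcf7, at 125.3, 122.0 and 126.3. Spleen was at 88.7, 93.7 and 86.8, blood at 87.5, 85.5 and 78.2, liver at 84.3, 68.8 and 83.2, and bone marrow at 58.9, 59.8 and 57.0. Lymph node and lung formed the upper pair, whose libraries did not overlap those of the 4 other sites, and bone marrow lay below all other libraries. In TPM, lymph node and lung were not separated (difference 0.15, SE 0.08, adjusted p = 0.13), while relative to T cell genes lymph node was lower (-0.3, adjusted p = 0.00813). Not separated in TPM either were spleen and blood (0.363) and blood and liver (0.391).

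Against blood, Lef1 differed by -0.72 (SE 0.08) for lymph node, by -0.57 (SE 0.08) for lung and by 0.51 (SE 0.08) for bone marrow, blood minus organ. On the T cell gene scale, blood took the top place, and the difference from lung was then 0.17 (adjusted p = 0.0889). Lef1 remained higher in lung than in spleen, bone marrow and liver on both scales, by between 0.47 and 1.08 in TPM. Their ratio within a library does not change with the scale of the library. Tcf7 over Lef1 in TPM was 1.13, 1.32 and 1.22 in lung and between 2.86 and 4.22 in the 15 other libraries.

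**Figure D1:**
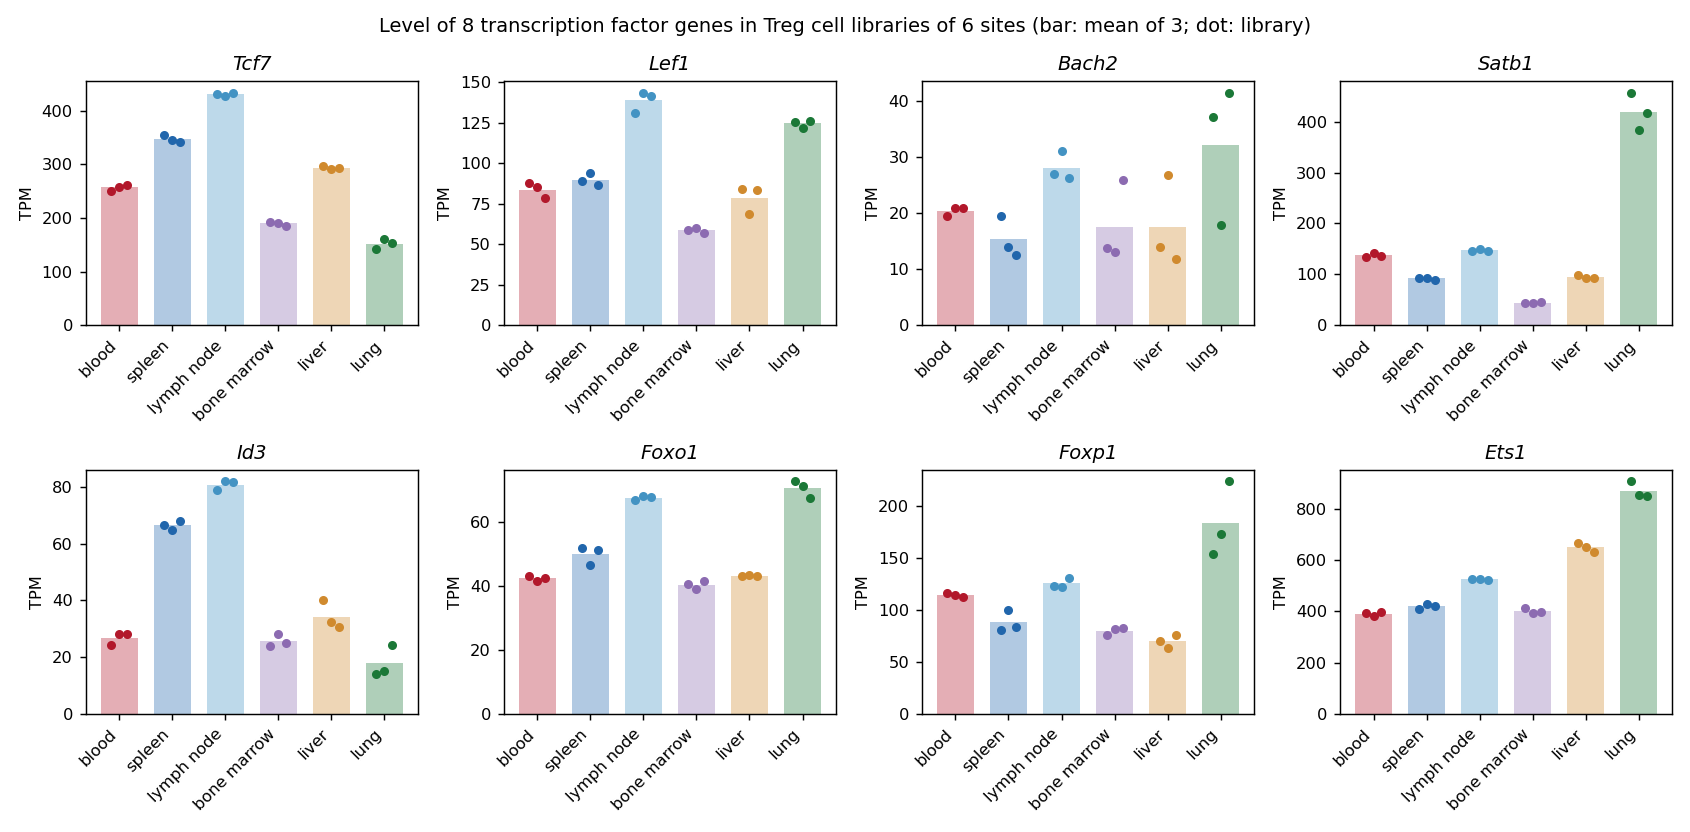
TPM (y axis, linear from 0) of the 8 genes in Treg libraries of the 6 sites (x axis); bars are means of 3 libraries and dots are libraries. Lung has the highest bars for Satb1 (419.3 TPM), Ets1 (871.2 TPM) and Foxp1 (183.1 TPM) and the lowest for Tcf7 (152.1 TPM) and Id3 (17.8 TPM). Its bars are also highest for Foxo1 (70.4 TPM) and Bach2 (32.2 TPM), where its dots overlap those of lymph node. The 3 Bach2 dots of lung, liver and bone marrow lie far apart.

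Satb1 (ENSMUSG00000023927, chr17:51736187-51833290, minus strand, protein coding) encodes a nuclear protein that binds AT-rich DNA, organizes chromatin loops and is needed for Treg development in the thymus. Lung libraries held 457.0, 384.3 and 416.6 TPM. Lymph node was at 146.2, 150.0 and 146.6, blood at 134.0, 141.8 and 135.2, liver at 99.1, 93.3 and 93.2, spleen at 93.2, 93.3 and 89.1, and bone marrow at 44.6, 43.0 and 45.6. The lowest lung library exceeded every library of the other sites, and the highest bone marrow library was below all others. Liver and spleen overlapped and were not separated by the test (adjusted p = 0.593), and neither were lymph node and blood (0.207), whose libraries did not overlap.

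Satb1 had the widest range of the 8 genes, 9.45-fold in TPM from bone marrow to lung and 8.32-fold on the T cell gene scale. Its F statistic ranked 56 among the 16694 genes. Lung exceeded each other site by 1.5 to 3.21 on the log2 scale in TPM (largest adjusted p 2.56e-11) and by 0.87 to 3.03 relative to T cell genes (largest adjusted p 2.85e-08). Bone marrow lay below each other site by 1.03 to 3.21 in TPM and by 0.53 to 3.03 relative to T cell genes (largest adjusted p 4.62e-09 and 1.4e-05). Relative to the T cell genes, Satb1 was at 123.3% ± 13 (SD, n = 3) in lung, 67.3% in blood and 14.8% in bone marrow. These directions and calls were kept under every alternative that was run.

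Ets1 (ENSMUSG00000032035, chr9:32636221-32757820, plus strand, protein coding) encodes the founding member of the ETS family, which is abundant in resting lymphocytes and supports Foxp3 expression. It was the most abundant of the 8 genes at all 6 sites. Lung libraries were at 907.1, 855.4 and 851.0 TPM, liver at 665.6, 649.5 and 632.9, and lymph node at 527.9, 527.7 and 523.0. Spleen was at 410.2, 427.4 and 422.6, bone marrow at 411.8, 394.6 and 397.6, and blood at 395.5, 381.2 and 396.6. Lung, liver and lymph node stood apart from one another and from the remaining 3 sites, and bone marrow overlapped both spleen and blood (adjusted p = 0.23 and 0.506).

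Lung exceeded each other site in Ets1 by 0.42 to 1.15 in TPM (largest adjusted p 2.76e-07) and by 0.41 to 1.38 relative to T cell genes (largest adjusted p 5.47e-07). Blood was lower than liver by 0.73 in TPM (SE 0.04) and higher than liver by 0.26 relative to T cell genes. The direction of blood against spleen, lymph node and bone marrow turned in the same way, so for Ets1 the place of blood depends on the scale. Satb1 over Tcf7 in TPM was 3.22, 2.39 and 2.71 in the lung libraries and at most 0.55 in the 15 others. Ets1 over Tcf7 was 6.39, 5.33 and 5.53 in lung and at most 2.25 elsewhere. These ratios, like Tcf7 over Lef1, were chosen after the values had been seen.

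**Figure D2:**
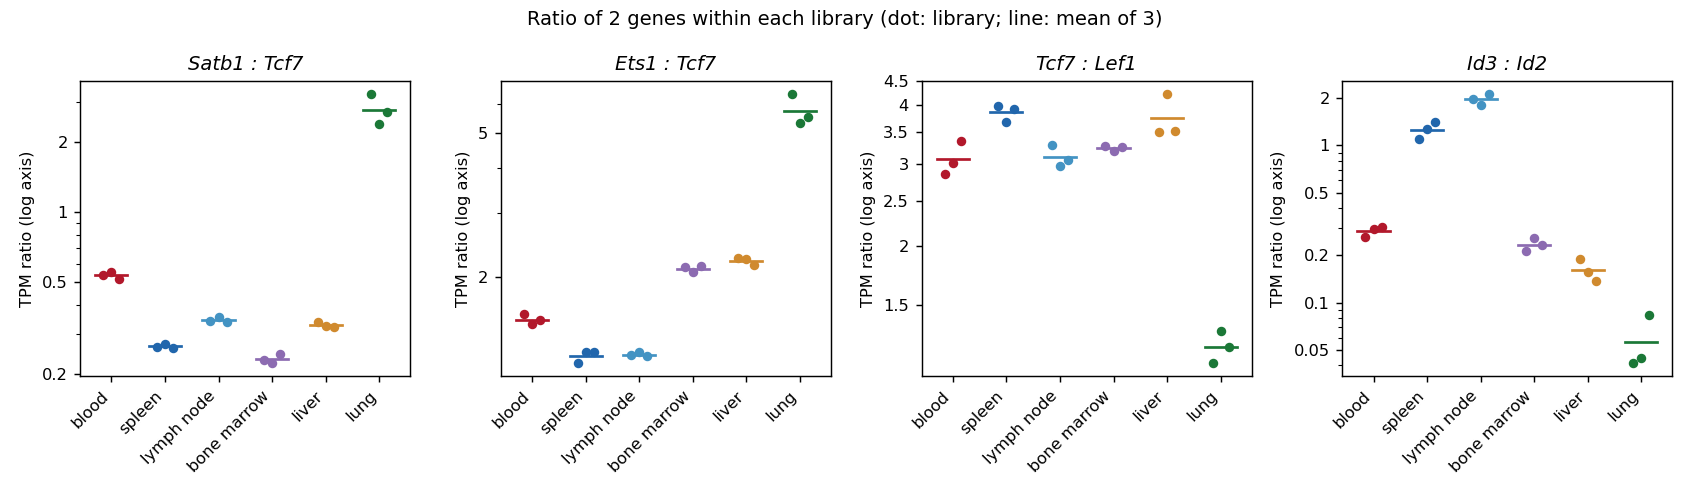
Ratio of TPM values of a pair of genes within each library (y axis, log scale) by site (x axis); dots are libraries and lines are means of 3. The lung libraries lie above all others for Satb1 over Tcf7 (mean 2.77) and Ets1 over Tcf7 (mean 5.75) and below all others for Tcf7 over Lef1 (mean 1.22) and Id3 over Id2 (mean 0.0564).

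Id3 (ENSMUSG00000007872, chr4:136143497-136145755, plus strand, protein coding) encodes an inhibitor of DNA binding that pairs with E proteins and keeps them off DNA, and its loss marks differentiating Treg cells. Its libraries were at 78.8, 81.9 and 81.6 TPM in lymph node and at 66.5, 64.9 and 67.9 in spleen. Liver was at 40.1, 32.4 and 30.5, blood at 24.3, 28.1 and 28.1, bone marrow at 23.8, 28.1 and 24.8, and lung at 14, 15.2 and 24.2. Lymph node and spleen lay above all libraries of the other 4 sites, and the third lung library reached into the range of bone marrow, just below the lowest blood library. Lymph node and spleen (adjusted p = 0.305), liver and blood (0.108), and blood and bone marrow (0.818) were not separated.

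Blood was lower in Id3 than spleen by 1.28 (SE 0.16) and than lymph node by 1.56 (SE 0.16) in TPM. Relative to T cell genes, these differences were -0.24 (adjusted p = 0.223) and -0.38 (adjusted p = 0.0546), and neither was called. Lung was lower than every other site on both scales, by 0.54 to 2.16 in TPM (largest adjusted p 0.0124) and by 0.7 to 1.71 relative to T cell genes (largest adjusted p 0.00354). The smallest of these, against bone marrow, was not called in 5 of the alternatives, among them those without lung replicate 1 (0.39, adjusted p = 0.0646), lung replicate 2 (0.45, 0.053) or bone marrow replicate 2 (0.47, 0.0544).

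Id2, the related inhibitor that is known from effector T cells, ran the other way between lymph node and lung. It stood at 336.1, 341.3 and 291.8 TPM in lung and at 39.8, 45.1 and 38.6 in lymph node, a difference of -2.94 (SE 0.09, adjusted p = 3.17e-13, lymph node minus lung). Id3 over Id2 was 1.98, 1.82 and 2.11 in the lymph node libraries, and 0.0416, 0.0445 and 0.0831 in the lung libraries. Spleen was the other site where Id3 was the higher of the pair, with a mean ratio of 1.25 ± 0.15 (SD, n = 3).

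Foxo1 (ENSMUSG00000044167, chr3:52268336-52353221, plus strand, protein coding) had the narrowest range, 1.74-fold in TPM. Lung libraries stood at 72.6, 71.3 and 67.4 TPM and lymph node at 66.9, 68.1 and 67.7. Spleen was at 51.9, 46.4 and 51.2, liver at 42.9, 43.4 and 43.0, blood at 43.1, 41.5 and 42.5, and bone marrow at 40.5, 39.0 and 41.6. As for Lef1, lung and lymph node made an upper pair that did not overlap the other sites and that was not separated within itself in TPM (adjusted p = 0.53). Lymph node was below lung relative to T cell genes (-0.51, adjusted p = 2.06e-05) and on the median ratio scale (-0.27, adjusted p = 0.00443). Liver, blood and bone marrow were close (0.826 and 0.504 for the neighbours). The lung level exceeded that of spleen, bone marrow and liver on both scales, by 0.49 (SE 0.07), 0.79 (SE 0.07) and 0.69 (SE 0.07) in TPM. Blood was 0.72 (SE 0.07) below lung in TPM and 0.01 above it relative to T cell genes (adjusted p = 0.922).

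Foxp1 (ENSMUSG00000030067, chr6:98925338-99522721, minus strand, protein coding) encodes a forkhead repressor that holds naive T cells in quiescence and works beside Foxp3 in Treg cells. Its libraries were at 153.6, 172.4 and 223.2 TPM in lung, at 123.1, 122.0 and 130.3 in lymph node, and at 116.4, 113.9 and 112.5 in blood. Spleen was at 80.9, 99.9 and 83.7, bone marrow at 75.6, 81.2 and 82.8, and liver at 70.4, 62.8 and 75.8. Every lung library exceeded every other library, although the lung libraries themselves were widely spread. In TPM the lung level was above each other site by 0.53 to 1.37 (largest adjusted p 0.00159), and relative to T cell genes it was above spleen, lymph node, bone marrow and liver but not blood (blood minus lung 0.08, adjusted p = 0.587). Lymph node and blood (0.426), spleen and bone marrow (0.473), and bone marrow and liver (0.207) were not separated.

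Bach2 (ENSMUSG00000040270, chr4:32238804-32586108, plus strand, protein coding) encodes a repressor that competes with AP-1 factors and restrains effector differentiation, and it is also a gene of B cells. It was the least abundant of the 8 at 5 of the 6 sites, lung being the exception, where Id3 was. The libraries stood at 37.2, 17.9 and 41.5 TPM in lung, at 26.9, 31.1 and 26.2 in lymph node and at 19.4, 20.9 and 20.9 in blood. Bone marrow was at 13.8, 13 and 26.0, liver at 13.9, 26.8 and 11.9, and spleen at 19.5, 13.9 and 12.5. In lung, bone marrow and liver, 1 of the 3 libraries lay far from the other pair, and the groups overlapped widely.

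The coefficient of variation of Bach2 between replicates was 41.5% in bone marrow, 46.0% in liver and 39.0% in lung. Genes within 1.5-fold of its level had a median of 8.32%, 26.6% and 17.0% at these sites, and Bach2 itself was at 4.18% in blood. Of its 15 pairs, only spleen minus lung was called in TPM, at -0.96 (SE 0.33, adjusted p = 0.0281), and this call was lost in 6 of the alternatives (adjusted p from 0.0503 to 0.117). Without spleen replicate 2, spleen replicate 3, lung replicate 1 or lung replicate 3, the adjusted p was 0.0764, 0.0949, 0.0962 and 0.116. Leaving out lung replicate 2, the low lung library, gave -1.2 (adjusted p = 0.00828) for liver minus lung and an F test adjusted p of 0.00935. The F test was also called without bone marrow replicate 3 (0.024) or liver replicate 2 (0.0149), with library weights (0.0175), and relative to T cell genes (0.00535). On that scale 4 pairs were called, namely blood minus spleen (1.43, adjusted p = 0.00144), blood minus liver (1.24, 0.00382), spleen minus lung (-1.27, 0.00649) and liver minus lung (-1.08, 0.0193).

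Across the 8 genes and 15 pairs of sites, 87 of the 120 differences were called, or 72.5%, and over all tested genes 33.8% were. These shares are not like for like, because the 8 genes were chosen with earlier results of these data known. Their levels also lay high among the tested genes, from percentile 57.1 (Bach2 in bone marrow) to 99.0 (Ets1 in lung). The T cell gene scale kept the direction and the call of 64 of the 87. Pairs with lung made up 31 of these 64, out of 40 such values. For the contrasts of blood, the background and the scale both matter, and the 5 contrasts share the same 3 blood libraries.

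Blood held 2 of the 8 genes higher than spleen, Satb1 (0.57, SE 0.06) and Foxp1 (0.38, SE 0.12), and 4 lower, where 20.1% and 15.3% of all tested genes were higher and lower. Relative to T cell genes, blood exceeded spleen for 7 genes and was lower for none, against 61.1% and 2.03% of all genes. Shares and medians of all genes on the T cell gene scale are over 17022 genes, because the 1 TPM filter was applied again after scaling. The smaller of the TPM calls were not firm. Foxp1 was not called without blood replicate 1, spleen replicate 1 or spleen replicate 3 (adjusted p = 0.055, 0.0769 and 0.0636), nor with abundant RNA classes removed (0.14). Foxo1 (-0.23) was not called without blood replicate 2, spleen replicate 1 or spleen replicate 3 (0.0546, 0.0614 and 0.0548). Ets1 (-0.1) was not called without any of the 3 blood or 3 lymph node libraries, spleen replicate 2 or spleen replicate 3 (0.0525 to 0.139). Nor were Foxo1 (-0.15, adjusted p = 0.0954) and Ets1 (-0.03, 0.627) called on the median ratio scale. With other cell type markers removed, Ets1 was at -0.06 and not called (adjusted p = 0.269).

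Against lymph node, none was higher and 5 were lower in TPM (Tcf7, Lef1, Id3, Foxo1 and Ets1), with 16.4% and 21% of all genes. On the T cell gene scale 6 were higher than in lymph node and none lower, with 60.1% and 1.59% of all genes. The counts on this scale thus stand beside a shift of most genes toward blood.

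Bone marrow was the site against which no difference of blood that was called in TPM turned with the scale. Ets1, not called in TPM (-0.04), did turn and was called relative to T cell genes (0.52). Tcf7 (0.43, SE 0.05), Lef1 (0.51, SE 0.08), Satb1 (1.6, SE 0.06) and Foxp1 (0.51, SE 0.12) were higher in blood than in bone marrow, and none of the 8 was lower, with 13% and 18.8% of all genes. Relative to T cell genes 7 were higher in blood and none lower, against 34.6% and 7.57% of all genes. Bone marrow also carried the largest myeloid marker sum, given above, and its part was not tested. 

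Against liver, 2 were higher in blood (Satb1, 0.52, SE 0.06, and Foxp1, 0.71, SE 0.12) and 2 lower (Tcf7, -0.19, SE 0.05, and Ets1, -0.73, SE 0.04), with 23.3% and 16.1% of all genes, while all 8 were higher and none lower relative to T cell genes, with 63.9% and 4.32% of all genes. Against lung, Tcf7 (0.75, SE 0.05) and Id3 (0.6, SE 0.16) were higher in blood and 5 genes lower in TPM, with 26.4% and 17.3% of all genes. Relative to T cell genes, Tcf7 and Id3 were again higher in blood, and Satb1 (-0.87) and Ets1 (-0.41) lower, where 56.1% and 6.72% of all genes were. The median of the 8 genes, blood minus lung, was -0.61 in TPM and 0.12 relative to T cell genes, and the median over all genes was 0.12 and 0.74.

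Differences between sites other than blood do not use the blood values. Their SE and adjusted p do, through the estimate of the spread that all 18 libraries share. Lymph node exceeded bone marrow for 7 of the 8 genes in TPM, all but Bach2, and liver for 6, with Ets1 the 1 gene that was lower in lymph node than in liver. Over all tested genes, 8.89% were higher and 13.7% lower in lymph node than in bone marrow, and 21.6% and 9.45% against liver. Spleen was lower than lymph node for 6 genes and higher for none (9.87% and 4.44% of all genes). Against bone marrow, spleen was higher for 5 genes and lower for none (5.92% and 18.2%), and against liver higher for 4 and lower for 1 (17.3% and 14%). Bone marrow was lower than liver for 4 genes and higher for none (9.36% and 25.1%).

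On the T cell gene scale, several of these counts were other ones. Lymph node was higher than bone marrow for 4 genes and lower for 1, Ets1 (-0.25), with 1.76% of all genes higher and 44.8% lower. Foxo1 (0.1, adjusted p = 0.276) and Foxp1 (0, adjusted p = 1) were no longer called there. Spleen was higher than bone marrow for 3 genes and lower for 3, namely Foxo1, Foxp1 and Ets1 (2.07% and 46.6% of all genes). Bone marrow was higher than liver for 2, Foxo1 (0.33) and Foxp1 (0.63), and lower for 3 (47.3% and 3.63%). Spleen was higher than lymph node for none and lower for 5 (5.14% and 4.21%). It was higher than liver for 2 and lower for 1 (13.4% and 15.1%), and lymph node was higher than liver for 6 and lower for 1 (11.4% and 12.6%).
Among spleen, lymph node, bone marrow and liver, the highest mean TPM of every gene but Ets1 was in lymph node. Between spleen and liver, Foxo1 was not called without spleen replicate 1 or 3 (adjusted p = 0.109 and 0.0955). Foxp1 there was not called without spleen replicate 2 or 3, lymph node replicate 1, or liver replicate 1 or 2 (0.0501 to 0.166).

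Against lung, the same 2 genes, Tcf7 and Id3, were higher in each of the other sites. Spleen was lower than lung for 6 genes (18%, with 22.8% of all genes higher), bone marrow for 5 (13.2% and 30.3%), liver for 5 (17.3% and 17.6%) and lymph node for 3 (14.9% and 27.4%). Tcf7 and Id3 were again higher relative to T cell genes at each of these sites. Spleen was then lower than lung for 6 genes (25.6%, with 13.2% of all genes higher), bone marrow for 5 (9.88% and 38%), liver for 6 (25.6% and 11.1%) and lymph node for 5 (25% and 12.5%).

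**Figure D3:**
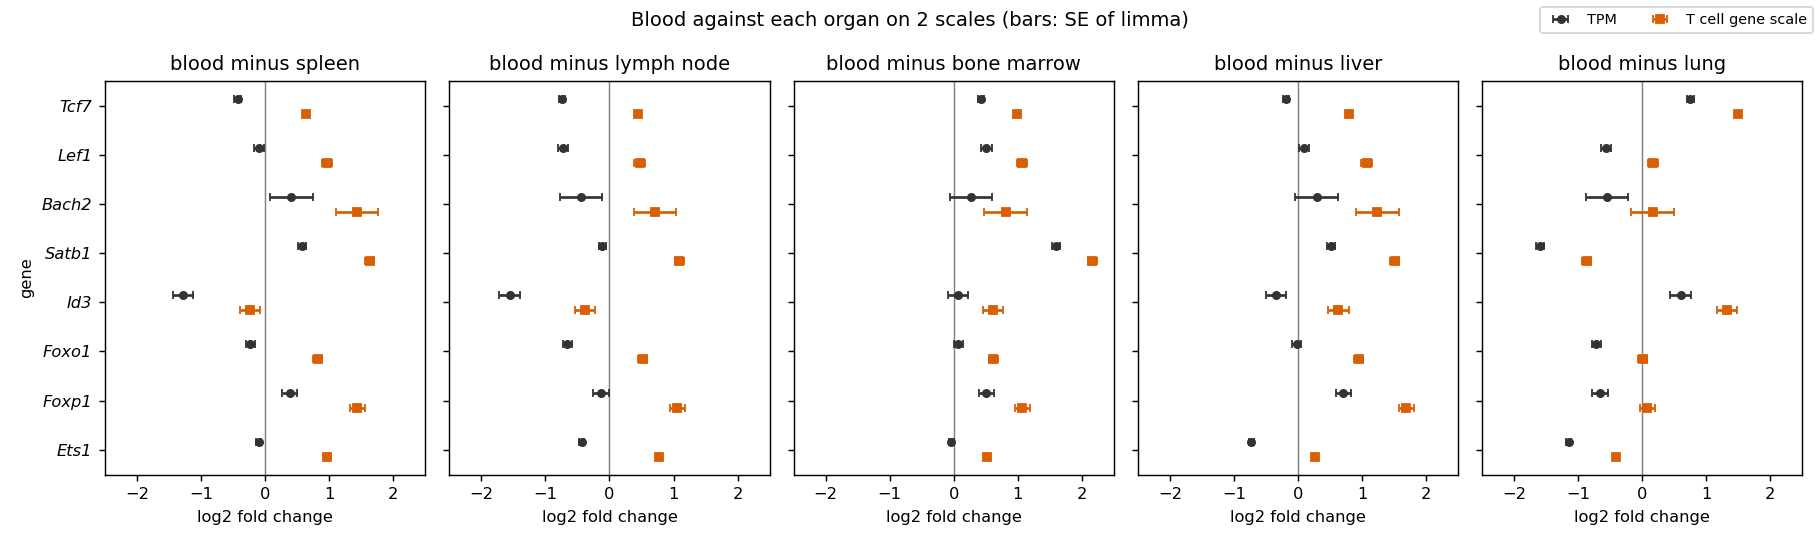
Log2 difference, blood minus organ (x axis), of the 8 genes (y axis) in 5 panels; black circles are TPM, orange squares the T cell gene scale, and bars the SE of limma. The squares lie to the right of the circles in every panel, and in the lung panel Satb1 and Ets1 stay left of 0 and Tcf7 and Id3 right of 0 on both scales.

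**Figure D4:**
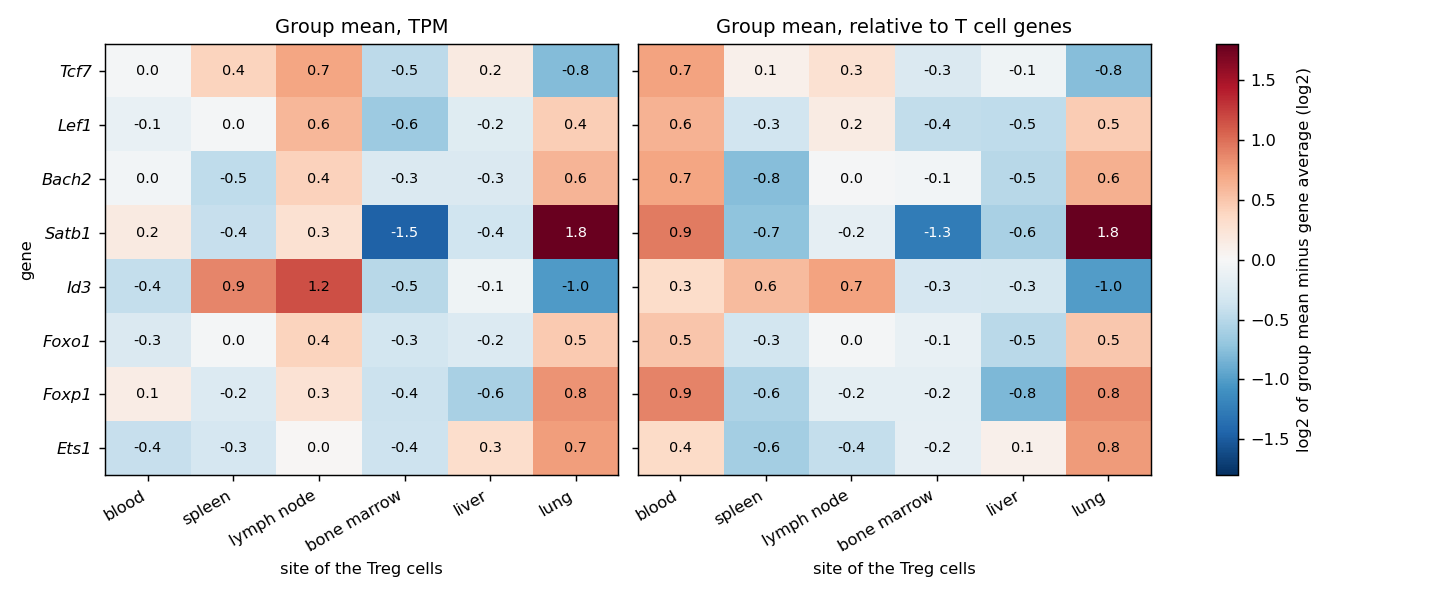
Group mean of each gene (rows) at each site (columns), as log2 of the mean minus the gene's average over the 6 sites, in TPM (left) and relative to 19 T cell genes (right). The lung column has the same signs on both sides, with Tcf7 and Id3 below 0 and the other 6 genes above, whereas blood is above 0 for all 8 genes on the right alone.

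The pattern over the 18 libraries put the 8 genes into a pair and a looser group. Tcf7 and Id3 ran together, with a Pearson correlation of log2(TPM + 1) of 0.93, and 0.8 on the T cell gene scale. Lef1 and Foxo1 had 0.91 on both scales, Satb1 and Foxp1 0.85 and 0.83, and Foxo1 and Foxp1 0.76 and 0.96. Tcf7 and Lef1, the pair of related factors, had 0.26 and 0.21, and Tcf7 and Ets1 -0.36 on both scales. These are descriptions over libraries that share site and scale, so that the 3 libraries of a site are close to repeats of the same point.

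**Figure D5:**
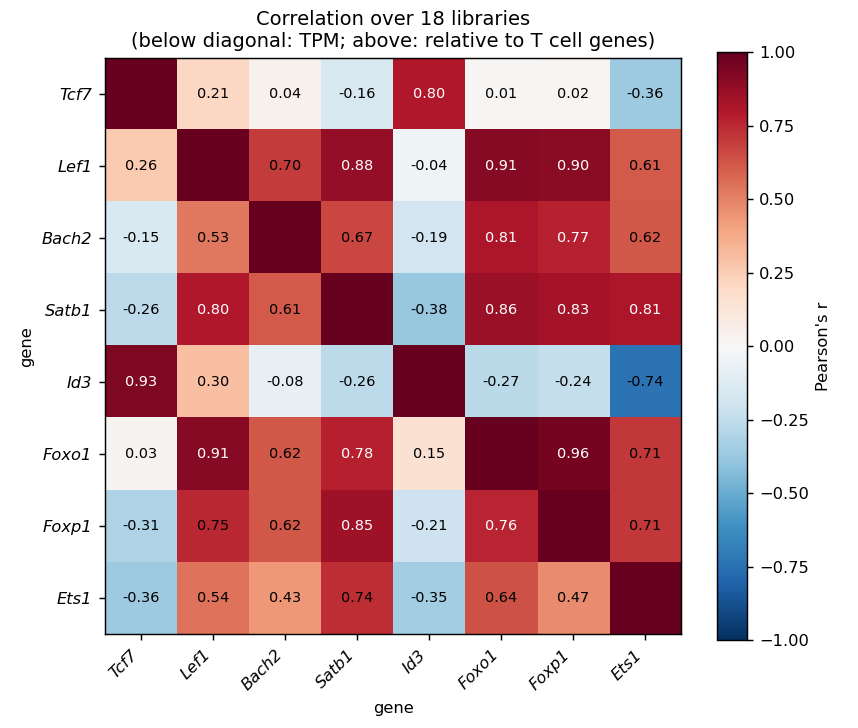
Pearson's r between the 8 genes over 18 libraries (colour and number), from TPM below the diagonal and relative to T cell genes above it. Tcf7 pairs with Id3 (0.93 and 0.8), and Lef1, Satb1, Foxo1 and Foxp1 form a block of r from 0.75 upward on both sides.

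Among 9387 other named genes, genes most like each of the 8 over the 18 libraries were as follows, with r in brackets. Tcf7 ran closest to Slc35g1 (0.954) and Ncoa7 (0.95), and Id3 to Pacsin1 (0.962), Ptms (0.961) and Eef1g (0.958). For Lef1 they were Il6st (0.964), St8sia1 (0.951) and Spsb1 (0.946), and for Foxo1 Il2rb (0.948), Galnt6 (0.934) and Spata13 (0.933). Satb1 was closest to Txk (0.986), which encodes a Tec family kinase of T cells, then Trib2 (0.966) and Tdrp (0.955). Txk itself stood at 83.6, 80.9 and 74.2 TPM in lung and 16.1, 12.2 and 15.9 in bone marrow. For Foxp1 the closest were Tgfbr2 (0.944), Bod1 (0.928) and Ptk2b (0.917), and for Ets1 Aebp2 (0.974), Slamf1 (0.97) and Paxbp1 (0.97). Bach2 had the weakest likeness, to Stxbp3 (0.825), Ndor1 (0.811) and Ap4e1 (0.788).

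The factors sit in a wider programme, and 13 other genes of resting and circulating T cells were set beside them. All 13 were called by the F test, where 68% of all genes were. In blood, 11 were higher and 1 lower than in spleen (20.1% and 15.3% of all genes), 11 and 2 than in bone marrow (13% and 18.8%), 9 and 2 than in liver (23.3% and 16.1%), 8 and 4 than in lung (26.4% and 17.3%), and 6 and 2 than in lymph node (16.4% and 21%). The median difference, blood minus organ, was 0.93, 1.22, 0.57, 0.87 and 0.26 in TPM in the same order, with 0, -0.11, 0.07, 0.12 and -0.15 over all genes. Relative to T cell genes, 13 were higher and 0 lower in blood than in spleen (61.1% and 2.03% of all genes), 12 and 1 than in bone marrow (34.6% and 7.57%), 12 and 0 than in liver (63.9% and 4.32%), 9 and 4 than in lung (56.1% and 6.72%), and 11 and 0 than in lymph node (60.1% and 1.59%). The median of the list on this scale was 1.78, 1.77, 1.53, 1.61 and 1.45 in that order, and that of all genes 0.87, 0.35, 0.91, 0.74 and 0.81.

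Members of this list differed in where they were highest. Ccr7, the receptor that guides T cells into lymph nodes, stood at 565.0, 580.8 and 578.4 TPM in lung, 255.2, 281.5 and 269.7 in blood and 41.3, 44.8 and 39.7 in bone marrow. Blood minus lung was -1.09 (SE 0.07, adjusted p = 4.42e-09), and -0.35 relative to T cell genes (adjusted p = 0.000452). Il7r, the receptor chain for the survival cytokine interleukin-7, was also highest in lung, at 489.5, 456.0 and 432.9 TPM, against 65.7, 65.6 and 67.9 in lymph node. Nsg2, in contrast, was at 39.0, 35.7 and 46.6 TPM in lung, 30.5, 31.3 and 29.4 in bone marrow and 196.8, 200.2 and 204.4 in lymph node. Dapl1 was low, with group means from 0.91 TPM in bone marrow to 12.6 in lymph node, and its spleen libraries ran from 0.0 to 10.4 TPM.

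Relatives and partners of the 8 factors were given by a list of 22 genes, of which 20 could be tested and 18 were called by the F test, where 68% of all genes were. Ets2, the closest relative of Ets1, was highest in lung as Ets1 was, at 133.0, 186.8 and 183.3 TPM against 18.1, 12.9 and 13.2 in spleen (-3.42, SE 0.21, adjusted p = 2.1e-09, spleen minus lung). Bach1, the relative of Bach2 that is common in myeloid cells, stood at 56.8, 55.1 and 51.8 TPM in blood and at no more than 15 TPM in any other library. Blood thus had the lowest Bach2 over Bach1, at 0.375, against 1.19 to 2.79 as group means at the other sites. Id1 was at 19.1, 19.4 and 18 TPM in blood, 13.8, 13.9 and 14.9 in bone marrow and below 1 TPM in liver.

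Factors of effector and tissue Treg cells were given by a list of 10, all called by the F test, where 68% of all genes were. In blood 8 were lower and 1 higher than in lung (17.3% and 26.4% of all genes), 9 and 0 than in liver (16.1% and 23.3%), 6 and 2 than in bone marrow (18.8% and 13%), 7 and 3 than in lymph node (21% and 16.4%), and 4 and 3 than in spleen (15.3% and 20.1%). With T cell genes as the scale, 6 were lower and 3 higher than in lung, 5 and 1 than in liver, 6 and 3 than in bone marrow, 2 and 5 than in lymph node, and 2 and 8 than in spleen. The shares of all genes on this scale were those given for the 8 factors, with 61.1% higher in blood against spleen and 60.1% against lymph node. The median of the list on this scale, blood minus organ, was 0.69 for spleen and 0.23 for lymph node, and that of all genes 0.87 and 0.81. Rora stood at 165.5, 152.3 and 138.4 TPM in lung, 128.1, 116.7 and 139.3 in liver and 10, 7.02 and 7.73 in blood (-4.06, SE 0.12, adjusted p = 5.18e-13, blood minus lung). Gata3 was at 181.8, 184.9 and 198.9 TPM in lung and 29.2, 28.2 and 31.1 in blood, and Nfil3 at 145.9, 158.8 and 150.2 in lung and 37.8, 37.4 and 33.8 in blood. Pparg was at 11, 11.4 and 12.7 TPM in lung and 6.9, 9.52 and 4.89 in blood (-0.69, SE 0.26, adjusted p = 0.0422, and -0.03 relative to T cell genes). The lung libraries thus held high levels of Rora, Gata3 and Nfil3 together with high Satb1, Ets1, Foxp1, Ccr7 and Il7r and low Tcf7 and Id3.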

How the data were processed

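Polyadenylated RNA of sorted Treg cells was sequenced from a directional library kit, per the labels' protocols. The authors deposited TPM values for 55487 gene IDs per library, and the submitters' processing notes name STAR, RSEM and mm10; versions and the use of strand are not given in the sources used here. TPM summed to between 999999.27 and 1000000.62 per library. The design provided for counts or normalized values, and the form for normalized values applied. Groups were taken from the labels. Symbols came from GENCODE M21 (55141 IDs).

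The test was limma 3.58.1 in R 4.3.3 (eBayes with trend and robust settings) on log2(TPM + 1), with 18 libraries in 1 model, an F test and 15 pair contrasts, for the 16694 genes whose mean reached 1 TPM at some site. Benjamini-Hochberg adjustment ran over all genes of each contrast, and adjusted p under 0.05 was called. The fit was tested on simulated data. The 8 genes and all gene lists were chosen with earlier results of these data known. Named were the 8 genes, the 4 genes of widest range in each of 3 lists, the 3 genes most correlated with each of the 8 (mean of at least 10 TPM at a site), genes of these that are described, and the check genes Foxp3, Il2ra and Cd3e; a gene that this rule names for Tcf7 is not reported here. Alternatives were a pseudocount of 0.1, no filter, the T cell gene scale, a median ratio scale, removal of abundant RNA classes or of other cell type markers, library weights, a replicate block and leaving out each of the 18 libraries. Values were handled with Python 3.11.15 and pandas 2.3.3.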

Additional observations from a re-analysis of the deposited data

How the results depend on the processing

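Of the 120 differences of the 8 genes, none changed side of the threshold with a pseudocount of 0.1, and no called difference changed direction. The T cell gene scale turned the direction of 25 differences that were called on either scale. For 79, the side of the threshold and the direction of any call were kept. Those 79 include differences called on neither scale, whatever their direction. Of the 87 calls in TPM, 64 were called in the same direction on that scale, 11 in the opposite direction and 12 not at all, and 18 further differences were called on that scale alone. Leaving out 1 library ended at most 6 calls, without spleen replicate 3. No alternative that was run changed a call of lung against another site for Satb1, Ets1 or Tcf7. The number of 3 libraries per site limits the precision, and depth is unknown. Causes of these changes were not tested.

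On the T cell gene scale, blood minus organ became positive for Tcf7 (0.63 for spleen, 0.45 for lymph node, 0.8 for liver), Lef1 (0.96 for spleen, 0.47 for lymph node, 0.17 for lung), Satb1 (1.09 for lymph node), Id3 (0.63 for liver), Foxo1 (0.82 for spleen, 0.52 for lymph node, 0.95 for liver, 0.01 for lung), Foxp1 (1.06 for lymph node, 0.08 for lung) and Ets1 (0.96 for spleen, 0.77 for lymph node, 0.52 for bone marrow, 0.26 for liver). Other differences that turned on this scale were Lef1 lymph node minus lung (-0.3, called on this scale) and bone marrow minus liver (0.01), Foxo1 spleen minus bone marrow (-0.2) and bone marrow minus liver (0.33), Foxp1 spleen minus bone marrow (-0.37), and Ets1 spleen minus bone marrow (-0.44) and lymph node minus bone marrow (-0.25). The differences above were called in TPM, on the T cell gene scale or on both. Of those called on neither, Bach2 blood minus lymph node (0.71), Bach2 blood minus lung (0.16) and Id3 bone marrow minus liver (0.02) also turned. On the median ratio scale, Ets1 blood minus bone marrow was 0.14.

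Counts of the 8 genes moved likewise. On the T cell gene scale, 7 were higher and 0 lower in blood than in spleen, 6 and 0 than in lymph node, 8 and 0 than in liver, 7 were higher than in bone marrow, 2 were lower than in lung, and 3 were called between spleen and liver. With abundant RNA classes removed, 1 was higher in blood than in spleen, on the median ratio scale 2 were lower, and with library weights 3 were called between spleen and liver. Leaving out 1 library gave 1 to 2 higher and 2 to 4 lower in blood than in spleen (1 higher without blood replicate 1, spleen replicate 1 or spleen replicate 3, and 2 lower without blood replicate 2 or spleen replicate 3), and 3 to 6 called between spleen and liver (3 without spleen replicate 3).

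The sites share replicate numbers in the labels. Over the 45 same-numbered pairs of libraries, the correlation of deviations from the site means was between -0.0345 and 0.0302. These correlations thus showed no deviation shared by replicate number. Whether same-numbered libraries came from the same animals or sorts was not tested, because the labels name neither. With the replicate number as a block, 11192 genes were called by the F test, against 11348 without it, 7 of the 8 genes were called either way, and none of the 120 calls changed.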
